A study of Mus musculus with 18 samples.

Results

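Guanylate-binding proteins (GBPs) and immunity-related GTPases (IRGs) are interferon-inducible GTP-binding proteins that guard the interior of a cell. The family analysed here was set by a list of 10 mouse genes, and a probe set counted as a member when its only gene symbol was on that list. Of the 10 genes, 8 had such a probe set, and these 8 were read by 11 probe sets out of 45037 on the array. They were Gbp2, Gbp3, Gbp7, Irgm1, Irgm2, Igtp, Iigp1 and Tgtp1, out of 17097 genes tested in all. Gbp5 and Gbp6 had no probe set assigned to them alone and are not analysed here.

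GBPs are large GTPases that assemble on the vacuoles of intracellular parasites and on bacterial surfaces, where they open the membrane and help the noncanonical inflammasome to sense lipopolysaccharide (LPS). IRGs are smaller GTPases that divide into effectors, which load onto pathogen vacuoles and break them, and IRGM regulators, which sit on the cell's own membranes and hold the effectors inactive there. In macrophages, LPS reaches these genes mainly through Toll-like receptor 4, which leads to interferon-beta, JAK-STAT signalling and binding of STAT and IRF factors to interferon response elements in their promoters.

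RNA was measured in bone marrow-derived macrophages of male FVB/NJ mice aged 10 to 14 weeks, which carried a knockout (KO) of Klf3, a zinc finger transcription factor that mostly represses transcription, or were wild type (WT). Marrow cells were grown for 7 to 10 days with L929-conditioned medium, which supplies M-CSF, the macrophage growth factor, and then moved to regular medium. Both genotypes were harvested at the change of medium (0 h), after 8 h with the vehicle, phosphate-buffered saline, or after 8 h with LPS at 100 ng/mL. Each of the 6 groups held 3 samples, each on 1 Affymetrix HT MG-430PM array. The labels name no KO allele and do not tie replicates to animals or cultures. The p-values therefore reflect only how far these samples spread, which may be technical.

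The Klf3 probe set that stands for the gene averaged 164 ± 14.5 intensity units in KO and 378 ± 80.5 in WT cells at 0 h (mean ± SD, n = 3 arrays each). After LPS it averaged 115 ± 14.3 in KO and 566 ± 126 in WT cells, and the arrays of the genotypes overlapped in none of the 3 conditions. The labels do not say which Klf3 probe sets lie in the deleted part, and the other 5 differed in direction. One averaged 14 ± 5.47 units in KO and 224 ± 49.5 in WT cells at 0 h, and another 49.6 ± 5.91 in KO and 185 ± 56.6 in WT, and both lay lower in every KO array than in any WT array in all 3 conditions. The remaining 3 read higher in every KO array than in any WT array at 0 h, but not after LPS. There 1 of them was lower in every KO array, at 63 to 64.4 units in KO and 73.5 to 117 in WT cells. The arrays of the others overlapped after LPS. All 9 macrophage markers measured lay above the nonspecific control level in every array. Of 10 T and NK cell markers, 7 lay at or under it in all 18, namely Cd3d, Cd3g, Ncr1, Klrb1c, Nkg7, Gzma and Ifng. Cd3e and Prf1 lay above it in every LPS array, and Cd2 in some vehicle arrays. The B cell marker Cd79b and the stromal and endothelial markers Pdgfrb and Pecam1 also exceeded it in some arrays. Replicate arrays correlated with r between 0.977 and 0.994 within groups. Every plate column held an array of each group, and plate row moved with treatment, so a row effect is not separable from the treatment effect. On a shared plate, KO and WT arrays of the same condition and column also lay in different rows. The part of plate row in the KO against WT comparisons was not tested.

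Promoter sequences were looked up because these genes moved together after LPS. RefSeq windows (GRCm38.p6, 250 bases before to 50 after the gene start) were given for 8 of the 10 listed genes, Gbp5 included and Gbp6 and Iigp1 not. Each of 3 motifs was searched on both strands. They were the core of the interferon-stimulated response element (ISRE, GAAA and GAAA with any 2 bases between), bound by IRF and STAT complexes, the gamma-activated site (GAS, TTC and GAA with any 3 bases between), bound by STAT dimers, and a kappaB motif (GGG and TTTCC with any 2 bases between), bound by NF-kB. The stretches around the ISRE core are shown for the measured genes, 5′ to 3′ on the gene's strand, with ISRE and GAS letters in capitals.
Gbp2, chr3:142620584-142620633, plus strand: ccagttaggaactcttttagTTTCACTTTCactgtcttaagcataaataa
Gbp3, chr3:142559979-142560034, plus strand: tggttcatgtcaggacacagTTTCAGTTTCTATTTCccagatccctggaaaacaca
Gbp7, chr3:142530263-142530312, plus strand: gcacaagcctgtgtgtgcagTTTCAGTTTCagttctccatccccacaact
Irgm1, chr11:48871415-48871470, minus strand: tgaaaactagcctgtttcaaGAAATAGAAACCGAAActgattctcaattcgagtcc
Irgm2, chr11:58214893-58214942, plus strand: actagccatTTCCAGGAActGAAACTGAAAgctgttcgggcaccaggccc
Igtp, chr11:58199502-58199551, plus strand: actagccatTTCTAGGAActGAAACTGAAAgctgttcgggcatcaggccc
Tgtp1, chr11:48992294-48992343, minus strand: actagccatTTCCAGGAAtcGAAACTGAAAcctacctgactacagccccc

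All 8 genes with a window held an ISRE core, against 3.99% of the 27025 genes with a window and 3.44% of all 32851 windows. The core lay on the minus strand in the GBP genes and on the plus strand in the IRG genes. Gbp3 and Irgm1 each held 2 overlapping cores, and a second listed start of Gbp3 held none. A GAS was found in 5 of the 8 genes (9.55% of all genes), among them Gbp7, Irgm2, Igtp and Tgtp1. In Irgm2, Igtp and Tgtp1 the GAS ended 2 bases before the ISRE core, whereas in Gbp7 the nearer GAS lay 25 bases away. The kappaB motif was found in Gbp5 alone of the 8 (1.89% of all genes). The promoter windows of Irgm2 and Igtp, which neighbour each other on chromosome 11, were identical at 72.8% of aligned positions, and the other pairs of members at 39.3% to 50.6%. A match is a description of letters in the window and shows no binding.

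**Figure D1:**
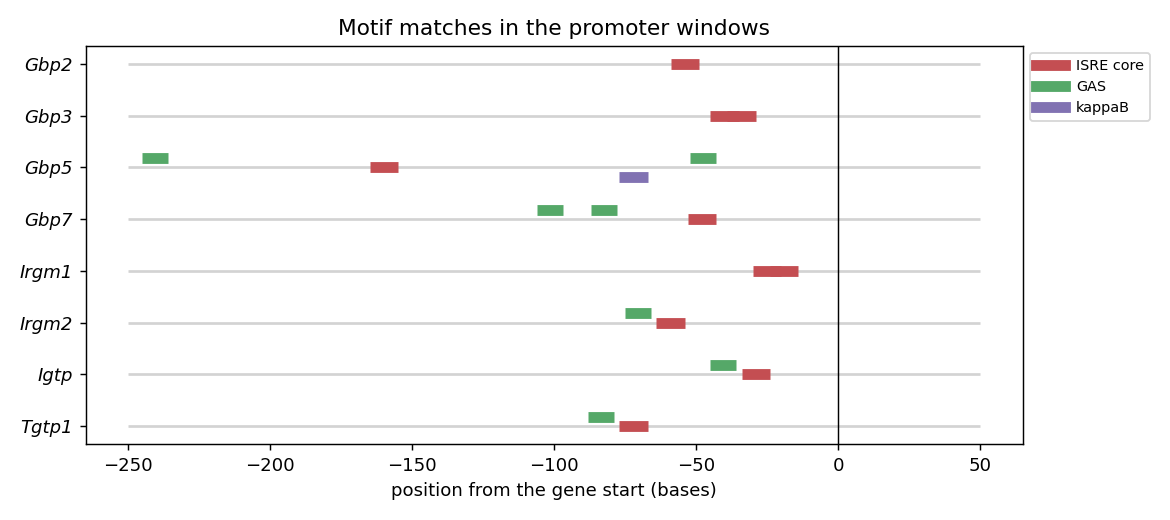
Positions of ISRE core (red), GAS (green) and kappaB (purple) matches from 250 bases before to 50 bases after the gene start, in bases, for the 8 listed genes with a promoter window. The ISRE core lies between position -77 and -15 in every gene except Gbp5, where it starts at -165.

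The genes sit in clusters. Gbp5, Gbp7 and Gbp3 are adjacent on chromosome 3 with Gbp2 close by, and Irgm1, Tgtp1, Igtp and Irgm2 lie on chromosome 11. Iigp1 lies on chromosome 18 and Gbp6 on chromosome 5. RefSeq lists Tgtp2, a near-identical copy, as a synonym of Tgtp1, so the Tgtp1 signal may hold both. Probes of closely related GBPs can also bind each other's transcripts.

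The response to LPS was the first comparison, taken in each genotype as LPS minus vehicle at 8 h. All 8 genes rose in KO and in WT cells, with no overlap between LPS and vehicle arrays (limma, adjusted p from 3.93e-12 to 6.5e-06 in KO and from 1.4e-12 to 2.84e-05 in WT). Of all 17097 genes, 13.9% rose and 20.6% fell in KO cells, and 13.7% rose and 18.7% fell in WT cells. The LPS arrays lay wholly above the vehicle arrays for 19.2% in KO and 18.4% in WT. The median change of the 8 was 4.72 in KO and 4.42 in WT cells on the log2 scale, against a median over all genes of -0.03 in KO and -0.01 in WT. The values over all genes depend on the normalization. With the deposited values their median was -0.03 in KO and -0.44 in WT, where 4.35% of genes rose and 39.2% fell. The 3 IRGM genes changed least in both genotypes, and Gbp3 most. The 5′ minus 3′ Gapdh signal, a measure of RNA integrity in log2, moved with treatment, at -0.47 in KO and -0.44 in WT cells after LPS, against -0.21 in KO and -0.18 in WT cells after vehicle, and its part in the response was not tested. These are bulk samples, in which more cells with a transcript and more transcript per cell cannot be told apart.

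**Figure D2:**
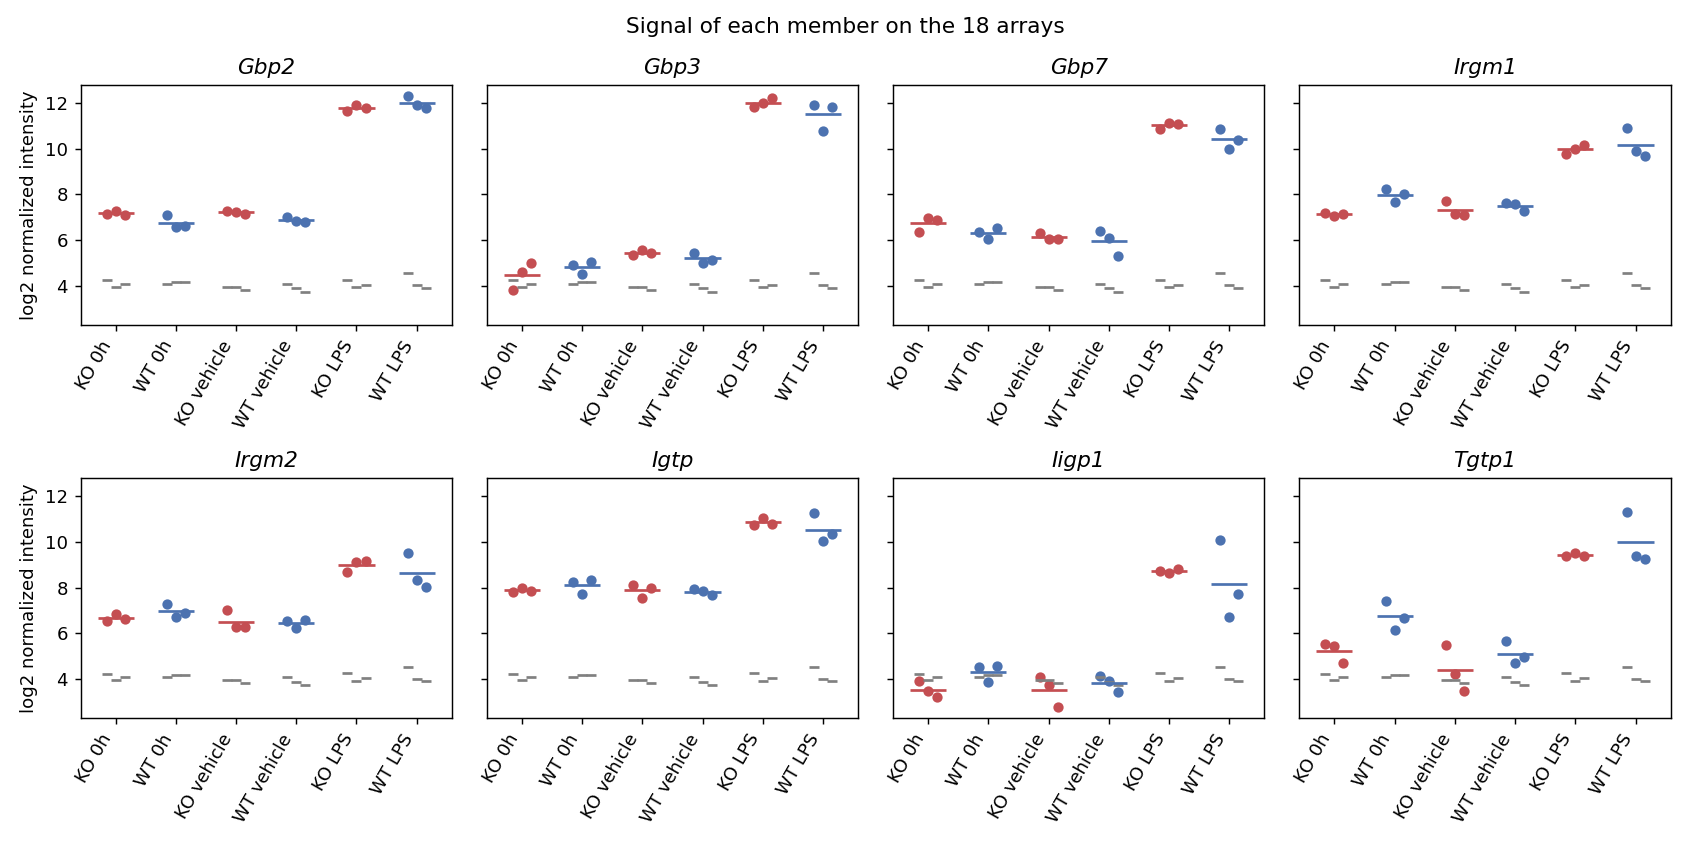
Log2 normalized intensity of each of the 8 genes on all 18 arrays, with KO in red and WT in blue, bars at group means (n = 3) and grey dashes at each array's nonspecific control level. In every panel the 6 LPS arrays lie above the 12 others, and Iigp1 lies near the grey dashes without LPS.

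Gbp3, a chromosome 3 GBP, had the largest change of the family. It read 3590, 4130 and 4750 intensity units in KO cells after LPS, against 40.7, 47 and 43.1 after vehicle. In WT cells it read 3850, 1730 and 3660 after LPS, against 42.9, 32.2 and 35.1 after vehicle. The change was 6.57 ± 0.29 (log2 ± SE, 94.9-fold) in KO and 6.31 ± 0.29 (79.6-fold) in WT cells, which ranked 18th in KO and 19th in WT among all genes.

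Gbp2, which is recruited to Toxoplasma vacuoles and to cytosolic bacteria, read 3170, 3870 and 3460 units in KO cells after LPS, against 153, 150 and 141 after vehicle. WT cells gave 5090, 3800 and 3540 units after LPS, against 129, 115 and 110 after vehicle. The change was 4.56 ± 0.16 in KO (23.6-fold) and 5.12 ± 0.16 in WT (34.7-fold). A further Gbp2 probe set gave 4.87 ± 0.31 in KO and 5.76 ± 0.31 in WT cells.

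Gbp7, a GBP that helps to bring NADPH oxidase subunits to bacterial vacuoles, read 1860, 2190 and 2160 units in KO cells after LPS, against 79.4, 65.1 and 66.9 after vehicle. In WT cells it read 1830, 1020 and 1340 units after LPS, against 83.7, 68.4 and 39.6 after vehicle. It changed by 4.88 ± 0.25 in KO and 4.48 ± 0.25 in WT cells, and its other probe set by 4.81 ± 0.25 in KO and 4.53 ± 0.25 in WT.

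The IRGM regulators changed by 2.48 to 2.98 in KO and by 2.20 to 2.72 in WT cells, below the GBPs and effector IRGs among the measured members. Irgm1, a regulator also tied to mitochondria and autophagy, read 864, 1020 and 1150 units in KO cells after LPS, against 207, 142 and 136 after vehicle. WT cells gave 1910, 945 and 828 units of Irgm1 after LPS, against 195, 188 and 153 after vehicle. Its change was 2.66 ± 0.25 (6.32-fold) in KO and 2.69 ± 0.25 (6.44-fold) in WT cells.

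Igtp, also called Irgm3, read 1680, 2100 and 1790 units in KO cells after LPS, against 275, 184 and 255 after vehicle. In WT cells Igtp gave 2430, 1050 and 1290 units after LPS, against 245, 228 and 207 after vehicle. Irgm2 ranged from 412 to 574 units in KO cells after LPS, against 76.8 to 128 after vehicle. In WT cells Irgm2 ranged from 261 to 738 after LPS, against 73.9 to 95.8 after vehicle. Igtp changed by 2.98 ± 0.25 in KO and 2.72 ± 0.25 in WT, and Irgm2 by 2.48 ± 0.30 in KO and 2.20 ± 0.30 in WT.

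Among the effectors, Iigp1 (Irga6) showed the widest range of values. It read 426, 394 and 451 units in KO cells after LPS, against 17, 13.1 and 6.79 after vehicle. In WT cells it read 1070, 106 and 213 units after LPS, against 17.6, 14.9 and 10.8 after vehicle, so the WT array with the most Iigp1 held 10.1 times that with the least. Only 1 of 3 KO and 2 of 3 WT vehicle arrays were above the nonspecific level, and the fitted changes of 5.20 ± 0.57 in KO and 4.35 ± 0.57 in WT rest on dim values. With values raised to that level they were 4.78 in KO and 4.26 in WT. A further Iigp1 probe set was at least 14.6-fold higher after LPS in KO and at least 10.8-fold in WT cells, since all its vehicle arrays lay under the level.

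Tgtp1 (Irgb6), an effector that coats vacuoles, read 669, 717 and 666 units in KO cells after LPS, against 45.1, 18.7 and 11.1 after vehicle. WT cells gave 2510, 674 and 600 units after LPS, against 50.3, 25.9 and 30.9 after vehicle. Only 2 of 3 KO vehicle arrays were above the nonspecific level, so the KO change rests in part on a dim value. The changes were 5.02 ± 0.52 in KO and 4.87 ± 0.52 in WT cells, and the 5 LPS arrays other than WT array 1 lay between 600 and 717 units.

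**Figure D3:**
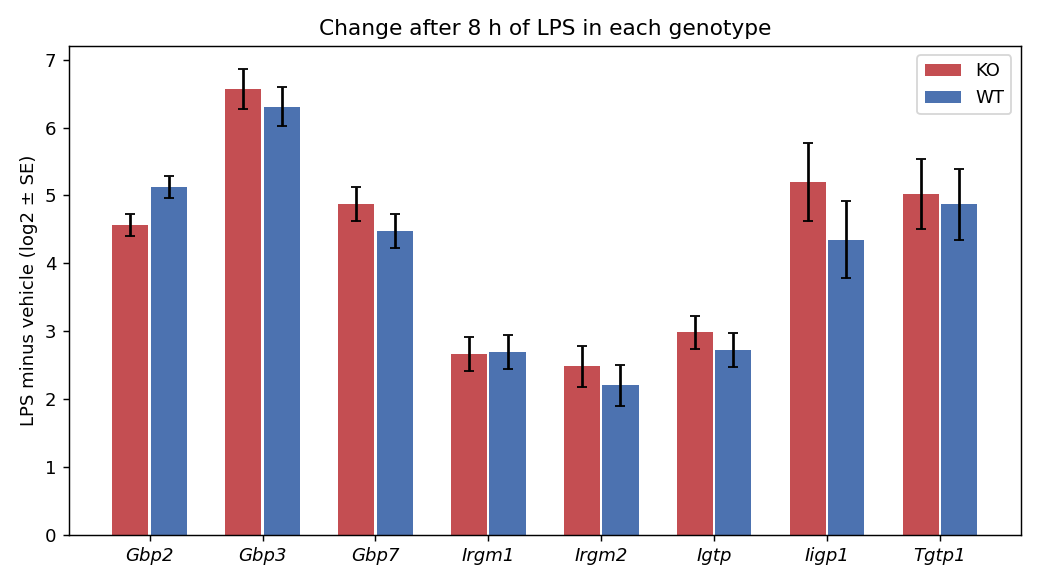
Change of each gene after 8 h of LPS, as LPS minus vehicle in log2 units from the limma fit, with KO in red left of WT in blue; bars are fitted changes and lines are standard errors (n = 3 arrays per group). Gbp3 reaches 6.57 in KO and 6.31 in WT, and the 3 IRGM genes stay between 2.20 and 2.98.

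Whether Klf3 loss altered the response was read from the interaction, the KO change minus the WT change. None of the 8 genes passed in this comparison, in which 1.11% of all genes did. An unadjusted p under 0.05 was found for 1 of the 8, and for 12.1% of all genes (limma). Gbp2 had the lowest adjusted p (0.295), with a difference of -0.56 ± 0.22 (log2) and a 95% interval of -1.03 to -0.10. Iigp1 had the widest interval, -0.86 to 2.56, around a difference of 0.85 ± 0.81 (adjusted p 0.741). The other 6 differences lay between -0.03 and 0.40. Intervals are for single genes and are not adjusted for the number of genes.

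After LPS, the KO arrays of the family lay close together and the WT arrays did not. The SD over the 3 arrays was smaller in KO than in WT for all 8 genes, with a median of 0.16 in KO and 0.65 in WT, against 0.17 in KO and 0.24 in WT over all genes. The SD was smaller in KO than in WT for 64.1% of all genes. The spread was not particular to the members. Among related GTPases, described below, the SD was 0.13 in KO and 0.58 in WT for Ifi47. It was 0.13 in KO and 0.49 in WT for Mx1, and 0.3 in KO and 0.86 in WT for Gbp10. Irgq, Gbp4 and Gbp8 had the larger SD in KO. WT LPS array 1 held the highest WT value of all 8 genes, of 5 of the 10 related GTPases and of 38.1% of all genes. It also had the highest 5′ minus 3′ Gapdh signal of the 6 LPS arrays, -0.07, against -0.46, -0.56 and -0.39 in the KO LPS arrays and -0.50 and -0.75 in the other WT LPS arrays. The part of RNA integrity in this spread was not tested. The smaller SD in KO did not hold after vehicle for all members. There it was larger in KO for Tgtp1 (1.02 in KO, 0.5 in WT), Iigp1 (0.68 in KO, 0.36 in WT), Irgm1, Irgm2 and Igtp. It was smaller in KO for Gbp2, Gbp3 and Gbp7. KO vehicle array 1 and WT vehicle array 1 were each the highest of their group for 7 of 8 genes, and for 31.4% (KO) and 36.8% (WT) of all genes.

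**Figure D4:**
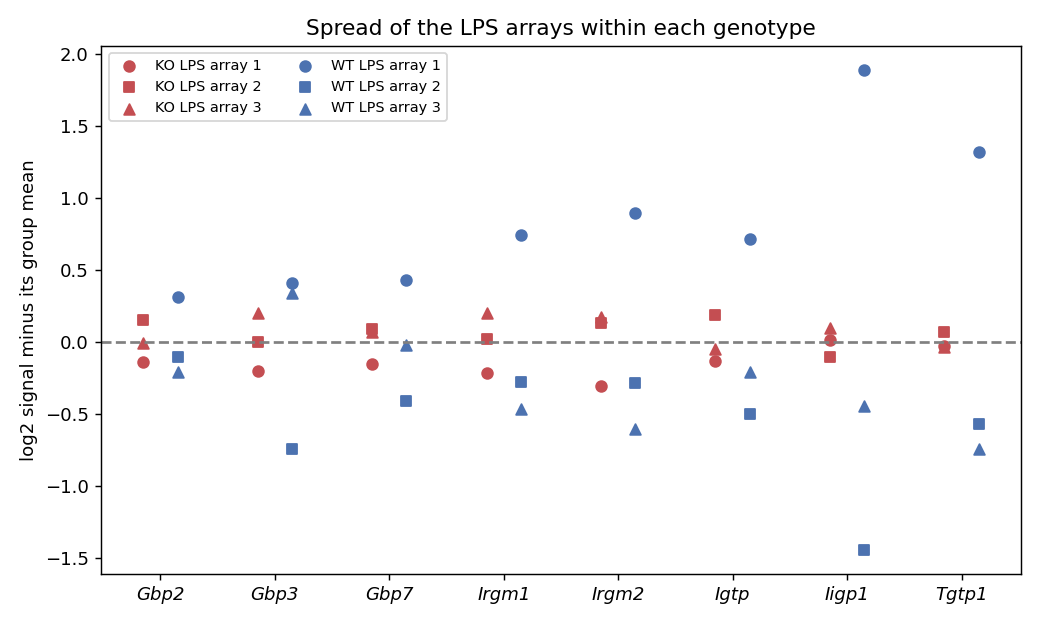
Log2 signal of each LPS array minus its group mean, KO (red) left of WT (blue), with the array number as the symbol. WT LPS array 1 (blue circles) is the highest WT array for all 8 genes, by most for Iigp1 and Tgtp1.

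KO and WT cells were then compared within each condition. After LPS none of the 8 genes passed and 5.97% of all genes did, while the unadjusted p was under 0.05 for 1 of the 8 and for 19% of all genes (limma). Gbp7 was the gene whose arrays did not overlap, with 1860, 2190 and 2160 units in KO against 1830, 1020 and 1340 in WT cells, a difference of 0.60 ± 0.25 (adjusted p 0.202), and KO arrays lay wholly above WT arrays for 8.39% of all genes. In the other Gbp7 probe set the arrays did overlap, at 1160 to 1390 units in KO and 517 to 1200 in WT cells. The differences of the other genes ran from -0.55 ± 0.52 for Tgtp1 to 0.55 ± 0.57 for Iigp1. These values depend on WT LPS array 1. Without it, a step added after that array was seen, Iigp1 was higher in KO by 1.49 ± 0.37 (adjusted p 0.0213), Irgm2 by 0.81 ± 0.24 and Igtp by 0.67 ± 0.20 (adjusted p 0.048 each, limma), while 4.36% of all genes were called higher. Because that array was the highest WT LPS array for all 8 genes, leaving it out can only raise KO minus WT. The direction of the shift was thus set by the choice of array, and these calls are no independent evidence of a genotype difference. Without that array the difference in response was still not past the threshold for any of the 8, and Iigp1 came nearest at 1.80 ± 0.50 (adjusted p 0.071).

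At 0 h none of the 8 genes passed and 0.14% of all genes did, while the unadjusted p was under 0.05 for 3 of the 8 and for 6.22% of all genes (limma). Tgtp1 read 46.5, 43.2 and 25.7 units in KO against 167, 71.3 and 102 in WT cells, a difference of -1.52 ± 0.52 (adjusted p 0.529). Irgm1 read 147, 130 and 140 units in KO against 301, 205 and 258 in WT cells, a difference of -0.86 ± 0.25 (adjusted p 0.366). For both genes all KO arrays lay below all WT arrays, as for 7.02% of all genes. Gbp2 read 141, 154 and 138 units in KO against 135, 93.9 and 96.9 in WT cells, a difference of 0.43 ± 0.16 (adjusted p 0.593) with no overlap, as for 7.55% of all genes. Arrays of the other Gbp2 probe set did overlap, at 72.3 to 87.5 units in KO and 59.7 to 83.3 in WT cells. Iigp1 was under the nonspecific level in all 3 KO arrays and above it in 2 of 3 WT arrays.

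After vehicle none of the 17097 genes passed (limma), and the unadjusted p was under 0.05 for 1 of the 8 and for 4.55% of all genes. That member was Gbp2, with 153, 150 and 141 units in KO against 129, 115 and 110 in WT cells, a difference of 0.33 ± 0.16 whose arrays did not overlap, as for 6.38% of all genes. Its other probe set did overlap, with 48.2 to 96.1 units in KO and 29.3 to 64 in WT cells. Averaged over the 3 conditions, none of the 8 genes passed, 0.368% of all genes did, and the unadjusted p was under 0.05 for 3 of the 8 and for 10.2% of all genes. Tgtp1 was lowest in KO, by -0.93 ± 0.36 (adjusted p 0.414), and Gbp7 highest, by 0.41 ± 0.14 (adjusted p 0.317).

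**Figure D5:**
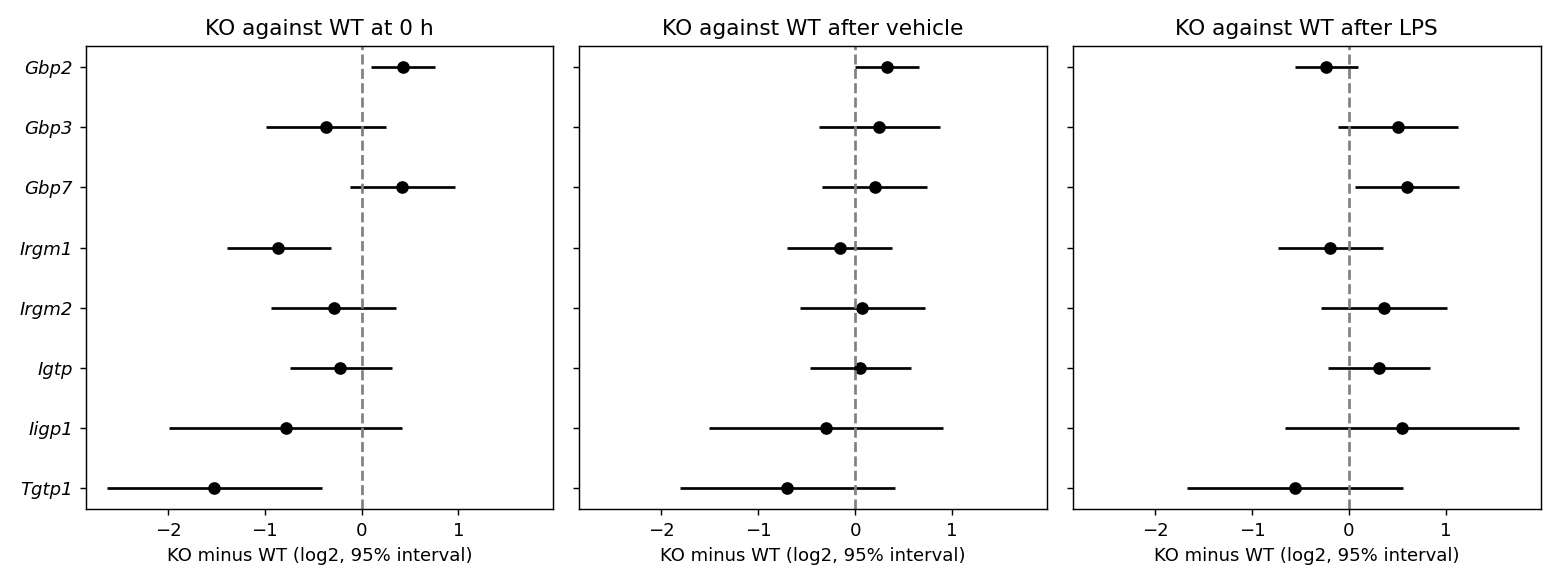
KO minus WT difference (log2, point) and its 95% interval (line) for each gene at 0 h, after vehicle and after LPS, from the limma fit with n = 3 arrays per group. No adjusted p passed in these panels, and the lines are longest for Iigp1 and Tgtp1.

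In the comparison of 8 h in regular medium with vehicle against 0 h, 1 of the 8 genes was called in each genotype. That is near the share of all genes called in either direction. In KO cells Gbp3 rose by 0.99 ± 0.29 (limma, adjusted p 0.0357), with 40.7, 47 and 43.1 units after vehicle against 13.8, 24.2 and 31.3 at 0 h, where 1 of 3 arrays lay under the nonspecific level. Of all genes, 6.76% rose and 5.79% fell in KO cells. In WT cells Tgtp1 fell by 1.64 ± 0.52 (adjusted p 0.0467), with 50.3, 25.9 and 30.9 units after vehicle against 167, 71.3 and 102 at 0 h. There 7.16% of all genes rose and 7.01% fell. The difference between the genotypes passed for none of the 17097 genes (limma), and the unadjusted p was under 0.05 for none of the 8 and for 3.67% of all genes. It was 0.63 ± 0.42 for Gbp3 and 0.82 ± 0.74 for Tgtp1 (adjusted p 0.999 each). With all replicates kept, the Gbp3 call was lost with the deposited values (0.94, adjusted p 0.0599) and with equal hybridisation controls (0.93, adjusted p 0.124), and the Tgtp1 call by median shift (-1.78, adjusted p 0.0575). Without some of the replicates each call was also lost, with adjusted p up to 0.28 for Gbp3 and 0.189 for Tgtp1.

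Genes of the pathway around the family were read from lists chosen with earlier results of these data known. The counts that follow are read against all genes tested, of which 13.9% rose and 20.6% fell in KO cells after LPS, and 13.7% rose and 18.7% fell in WT cells. Of 10 related GTPases measured, 8 rose in KO and 5 in WT cells after LPS. The 3 called in KO cells alone were Irgq, Gbp4 and Gbp8. Gbp8 lay at or under the nonspecific level in all 18 arrays and Gbp4 was above it in 1 KO LPS array only, so neither is given a size, and in WT cells the LPS arrays of both also lay above the vehicle arrays. Gbp10 was at least 47.2-fold higher in KO and at least 28.8-fold in WT, and Gbp2b at least 9.49-fold in KO and 7.7-fold in WT, because all their vehicle arrays lay under the nonspecific level. The Mx proteins, antiviral dynamin-like GTPases, rose as well, Mx1 by 5.30 in KO and 5.59 in WT (log2) and Mx2 by 4.30 in KO and 4.64 in WT. Ifi47, an IRG, rose by 3.39 in KO and 3.68 in WT cells. Irgq, an IRG-like gene, rose by 0.53 ± 0.16 in KO cells and had -0.20 ± 0.16 in WT. Irgc1 and Gm12185 passed in neither genotype, and none of the 10 passed for the difference in response between KO and WT cells.

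Interferons themselves were near the limit of detection. Ifnb1, which encodes interferon-beta, was above the nonspecific level in 1 KO LPS array and in no other, and Ifng lay at or under it in all 18 arrays. Of 12 interferon ligand, inducer and receptor genes, 6 rose and 2 fell in KO cells, and 5 rose and 1 fell in WT cells. The response of Il12a and Il18, both encoding cytokines that induce interferon-gamma in lymphocytes, was greater in KO than in WT cells, by 3.68 ± 0.39 for Il12a (limma, adjusted p 0.000153) and 1.36 ± 0.23 for Il18 (adjusted p 0.00683). Il12a was above the nonspecific level in all 3 KO and 1 of 3 WT LPS arrays. Ifngr1, a receptor subunit, fell by 1.10 in KO and 0.41 in WT cells, and its difference in response did not pass. Of 14 JAK-STAT and IRF genes, 9 rose and 1 fell in each genotype. Irf7, an interferon-induced IRF, rose by 4.04 in KO and 3.99 in WT, and Jak2, a kinase of the interferon-gamma receptor, by 2.97 in KO and 2.99 in WT. Irf8 fell by 1.21 in KO and 0.48 in WT cells. None of the 14 passed for the difference in response between KO and WT cells, in which 1.11% of all genes did.

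Of 8 inhibitors of interferon signalling, 5 rose and 2 fell in KO, and 5 rose and 3 fell in WT cells. Socs3 rose by 6.23 in KO and 6.80 in WT, Socs1 by 5.71 in KO and 4.20 in WT, and Usp18 by 4.25 in KO and 4.02 in WT. None of the 8 inhibitors passed for the difference in response between KO and WT cells. Of 13 genes of ATG8 conjugation, on which the loading of IRGs and GBPs depends, and of vacuole ubiquitination, 4 rose and 9 fell in KO, and 4 rose and 6 fell in WT cells. Rnf213, a ubiquitin ligase, rose by 2.45 in KO and 2.51 in WT, and Atg7, the E1-like enzyme of ATG8 conjugation, fell by 1.03 in KO and 1.43 in WT. For these 13 genes too, no difference in response passed. Of 8 genes of the inflammasomes that GBPs feed, 5 rose and 2 fell in KO, and 6 rose and 1 fell in WT cells. Casp4, the mouse caspase-11 gene that senses cytosolic LPS, rose by 2.62 in KO and 2.56 in WT. Pycard, the ASC adaptor, fell by 0.90 in KO and rose by 0.46 in WT, and the difference of -1.36 ± 0.21 passed (limma, adjusted p 0.00367). Of 9 genes between LPS and interferon, 5 rose and 2 fell in KO, and 6 rose and 2 fell in WT. Of 6 genes of protein prenylation, a lipid modification of some GBPs, none rose and 2 fell in KO, and 1 rose and 2 fell in WT cells.

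The genes whose pattern was most like the mean of the family were described by Pearson correlation over the 18 arrays, which share the treatment. They were Ddx58 and Oasl1 (r 0.993 each), Gm9706, Ifih1 and Parp12 (0.992 each), Cmpk2 and Ifi35 (0.991 each), Car13 (0.99), Ms4a4c (0.989) and Irf7 (0.988), of 11292 genes ranked. Between the members themselves, r ran from 0.886 to 0.986 over 28 pairs, with a median of 0.957. Ddx58 and Ifih1 encode RNA sensors of the interferon pathway. The neutrophil marker sum was 419 to 596 units in KO and 487 to 827 in WT cells after LPS, against 67.6 to 77.2 in KO and 61.5 to 92.8 in WT cells after vehicle. Of its 6 markers only S100a8 and Camp exceeded the nonspecific level, with S100a9, Mpo, Elane and Ltf at or under it, and its part in the LPS response was not tested.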

How the data were processed

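The deposited values are linear intensity, 1 per probe set and array, made by the authors with Partek per the submitters' processing notes. Of the Partek version, background correction and scaling, none is stated in the sources used. The design had allowed for log2 values already normalized. Because the deposited intensity columns were linear and their medians ran from 11.4 to 18.6, log2 was taken of the deposited values and the 18 arrays were quantile-normalized. Array number limits the precision, and no depth applies. Of 45141 probe sets, 104 were controls. Of the other 45037, 28898 had 1 gene symbol, 551 several and 15588 none. For each of the resulting 17097 genes, its brightest single-gene probe set (mean of all arrays) was used.

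Tests used limma 3.58.1 in R 4.3.3, with 1 mean per group over 18 arrays, two-sided moderated p-values and Benjamini-Hochberg adjustment over all genes within each of 10 comparisons, at 0.05. The average over conditions used arrays averaged by genotype and replicate number. The limma fit was tested on simulated data with changes set in the WT LPS arrays, for the WT LPS response only. The nonspecific level of an array was set at percentile 95 of its 23 control probe sets for nonspecific binding; "at least" folds were computed against it. Printed intensities are normalized.

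Named genes were all members, Klf3, the related GTPases, up to 4 genes per list and comparison with the largest change past the threshold, and the 10 genes most correlated with the family mean. Ifng and the marker genes were named outside this rule, after their values were seen. Members, lists and motifs were chosen with earlier results of these data known. Alternatives were other scalings, a filter on dim genes, a floor, the mean of all probe sets, blocks for replicate number and plate column, and each replicate left out. Leaving out WT LPS array 1 alone was added after seeing the data. Promoter windows were aligned with Biopython 1.88.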

Additional observations from a re-analysis of the deposited data

How the results depend on the processing

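The LPS responses of the 8 genes in KO and WT cells stayed past the threshold in the same direction under every alternative run, from 1.56 to 6.68 on the log2 scale, and the KO minus WT difference in response, and the KO against WT comparisons at 0 h and after vehicle, gave no call under any. Other results moved. After LPS, 1 member was higher in KO with the deposited values (Gbp7, 1.01, limma adjusted p 0.0411), where 7.24% of all genes were higher. With 1 replicate left out the count was 0 to 1 (Iigp1, 1.49, adjusted p 0.0356 without WT replicate 1), and 3 without WT LPS array 1 alone. Leaving out that array can only raise KO minus WT for the 8 genes. For vehicle against 0 h in WT cells the count of lower members was 0 by median shift, and 0 to 1 with 1 replicate left out, lost without WT replicate 1, 2 or 3 or KO replicate 2 (Tgtp1 adjusted p 0.0528 to 0.189). In KO cells the count of higher members was 0 with the deposited values and with equal hybridisation controls, and 0 to 1 with 1 replicate left out, lost without WT replicate 3 or KO replicate 1 or 2 (Gbp3 adjusted p 0.0531 to 0.28). Over the 3 conditions, 1 member was lower in KO with equal hybridisation controls (Tgtp1, -0.88, adjusted p 0.0418). The cause of these moves was not tested. The deposited values moved the median of all genes from -0.01 to -0.44 for the WT LPS response and left it at -0.03 for the KO one. Replicate numbers were not shown to pair the samples (r of deviations -0.046 to 0.144 within genotype, 2 of 18 over 0.1). With the replicate block, 8 members rose after LPS in KO and 8 in WT cells, the Gbp2 difference in response had an adjusted p of 0.15, and no member call changed. The plate column block, the filter on dim genes, the floor and the mean of all probe sets changed no member call either.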
